A study of Mus musculus with 24 samples.

Results

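The transcripts of 8 genes of cellular zinc handling were followed in the hippocampal CA1 region of mice after status epilepticus (SE): the metallothioneins Mt1, Mt2 and Mt3, the transcription factor Mtf1, the zinc exporters Slc30a1 and Slc30a3, and the zinc importers Slc39a10 and Slc39a14. They were found by matching the Ensembl identifiers of the deposited count table to mouse GENCODE symbols. All 8 had a row among the 18647 genes of the table, and all 8 were among the 18153 genes that passed the filter on low counts. RNA of microdissected CA1 was sequenced in 24 libraries from adult C57Bl/6N mice, aged at least 60 days. SE was induced with 335 mg/kg pilocarpine, and CA1 was taken 6, 12, 24, 36 or 72 h later, with 3 libraries at each time (SE 6 h to SE 72 h). The controls received saline in place of pilocarpine and were taken at 12, 36 and 72 h, again with 3 libraries each (Ctr 12 h to Ctr 72 h), so that SE 6 h and SE 24 h have no control of their own time. Every animal, controls included, received scopolamine methyl nitrate beforehand and, after it, diazepam, which is given to end SE. Only pilocarpine-treated animals that developed SE were used, and the whole animal was exposed to the drug, so that the model is not restricted to CA1.

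Metallothioneins are small cysteine-rich proteins that bind zinc and copper and buffer their free levels. Mt1 and Mt2 are the widely expressed, inducible forms and are prominent in astrocytes, whereas Mt3 is the form characteristic of brain. MTF1 senses a rise in free zinc and binds metal response elements in the promoters of its targets, among which are Mt1, Mt2 and Slc30a1. SLC30 proteins move zinc out of the cytosol, across the plasma membrane in the case of SLC30A1 and into the synaptic vesicles of glutamatergic terminals in the case of SLC30A3, also called ZnT3. SLC39 proteins move zinc into the cytosol, and SLC39A14 also carries iron and manganese.

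The 3 metallothionein genes lie close together on the plus strand of chromosome 8 in GRCm39, Mt3 (ENSMUSG00000031760.10) at chr8:94879220-94881088, Mt2 (ENSMUSG00000031762.8) at chr8:94898819-94900207 and Mt1 (ENSMUSG00000031765.9) at chr8:94905710-94906955. Mtf1 (ENSMUSG00000028890.14) is at chr4:124695897-124743593 on the plus strand. Of the transporters, Slc30a1 (ENSMUSG00000037434.8) is at chr1:191638808-191645361 on the plus strand and Slc39a10 (ENSMUSG00000025986.7) at chr1:46845872-46964964 on the minus strand. Slc30a3 (ENSMUSG00000029151.15) is at chr5:31241914-31265581 and Slc39a14 (ENSMUSG00000022094.16) at chr14:70540678-70588914, both on the minus strand. These positions are from GENCODE M39 on GRCm39, the build of the files. On the opposite strand, exonic bases are shared by Mt2 with Gm45774, by Mtf1 with 1110065P20Rik (761 bases), by Slc30a1 with 1700034H15Rik (468 bases) and by Slc39a10 with Dnah7c (318 bases), and there reads of the pair cannot be told apart.

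The promoters of Mt1 and Mt2 are shown because both genes rose after SE and both are known targets of MTF1. Each window runs from 250 bases before to 50 bases after the RefSeq gene start and was taken from RefSeq on GRCm38.p6. Each matched GRCm39 exactly once, at chr8:94905467-94905766 for Mt1 and chr8:94898996-94899295 for Mt2, both on the plus strand. The Mt2 window lies wholly inside Mt2 as GENCODE M39 places it, from chr8:94898819. RefSeq and GENCODE M39 therefore give Mt2 different starts. Capitals mark the core of the metal response element, TGCACNC or TGCGCNC, on either strand.
Mt1: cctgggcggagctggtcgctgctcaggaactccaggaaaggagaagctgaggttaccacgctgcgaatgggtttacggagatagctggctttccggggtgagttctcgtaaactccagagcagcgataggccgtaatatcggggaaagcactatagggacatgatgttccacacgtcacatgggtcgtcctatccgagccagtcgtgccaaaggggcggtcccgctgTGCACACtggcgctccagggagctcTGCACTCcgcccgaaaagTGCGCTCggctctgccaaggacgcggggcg
Mt2: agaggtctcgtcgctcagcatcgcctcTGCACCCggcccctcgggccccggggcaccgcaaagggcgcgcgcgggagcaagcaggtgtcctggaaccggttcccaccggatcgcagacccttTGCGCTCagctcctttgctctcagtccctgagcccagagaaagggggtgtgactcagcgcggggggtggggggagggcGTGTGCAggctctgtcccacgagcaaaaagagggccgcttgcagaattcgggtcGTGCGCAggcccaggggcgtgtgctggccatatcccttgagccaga
The Mt1 window held 3 matches and the Mt2 window 4, and no match overlapped another. Of these, 1 in Mt1 and 3 in Mt2 lay before the RefSeq gene start. At least 3 matches were found in 1.97% and at least 4 in 0.517% of the 32851 promoter windows of the same length in the table, and at least 1 in 25.7%. RefSeq windows were at hand for 7 of the 8 members, all but Slc39a14. The Slc30a1 window held 2 matches, the Mt3 window and 1 of the 2 Slc30a3 windows held 1 each, and the Mtf1 window, the other Slc30a3 window and both Slc39a10 windows held none of these letters. The Mtf1 window, at chr4:124696092-124696391, likewise lies inside Mtf1 as GENCODE M39 places it. A match describes the sequence, not binding, which was not measured.

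The libraries held 2663936 to 30133731 counts each (median 13521590). The lowest count of any member in any library was 13, for Mt2. Genes of peripheral ganglia, which do not belong to CA1, were summed over Prph, Scn10a, Avil and Calca. In this sum 6 libraries (Ctr 72 h replicate 2, SE 6 h replicate 3, SE 12 h replicate 1, SE 36 h replicate 3 and SE 72 h replicates 1 and 2) held 233 to 1243 CPM (the count scaled to a common library total), whereas the other 18 held 48.7 CPM or less. Summed neuron markers ran from 5520 to 7621 CPM in the 9 control libraries and from 3549 to 4102 CPM at SE 72 h, and summed astrocyte markers from 3536 to 4879 CPM in controls and from 11612 to 13319 CPM at SE 72 h. The 6 astrocyte markers did not rise alike. Their median log2 fold change at 72 h was 1.34, with 3 called higher and 0 lower, and that of Gfap, given below, was far larger. In whole tissue, fewer cells of a type and less RNA per cell cannot be told apart. The numbers that name the samples fall in 3 ranges, of which the low one held SE libraries only (8 of the 15) and the high one held 4 of the 9 control libraries and 1 SE library, and what the numbers record was not given in the sources used here.

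Levels are given as CPM scaled by TMM. Changes are log2 fold changes with their standard error from edgeR's quasi-likelihood test over all 24 libraries. The fit held 1 factor of unwanted variation (RUVr). Where the range of sample numbers was a factor, it took the place of the RUVr factor. A gene was called when its Benjamini-Hochberg adjusted p over all genes tested was at most 0.05 and its absolute log2 fold change at least 0.66, or at least 1 between SE times. No minimum size was set for a difference of the SE effect between times. SE 6 h and SE 24 h were both compared with the mean of all 9 control libraries, so those comparisons share their controls.

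Mt1 and Slc39a14 were called higher at all 5 times after SE, and Mt2 at all but 72 h. Mtf1 was called higher at 12 h only, Slc39a10 lower at 6 h and Slc30a3 lower at 24 h, while Mt3 and Slc30a1 were called at none of the 5 times. At 12 h, 4 of the 8 members were called higher, where 13.9% of all genes tested were called higher and 11.4% lower. At 36 h, 3 were called higher (12.7% of all genes higher, 8.91% lower), and at 72 h 2 were (15.2% higher, 4.21% lower). At 6 h and at 24 h, 3 were called higher and 1 lower, against 15.8% of all genes higher and 6.21% lower at 6 h and 14.9% higher and 9.21% lower at 24 h. The median log2 fold change of the 8 members in order of time from 6 to 72 h was 0.59, 0.40, 0.37, 0.36 and 0.56, beside medians of 0.06, 0.01, 0.04, 0.00 and 0.10 over all genes tested. With the 6 libraries that held ganglion RNA left out, 5 members were called at 12 h and 4 at 72 h. Slc39a10 was added as lower at 12 h (-0.66) and as higher at 72 h (0.87), and Mt2 as higher at 72 h (2.08). The counts of 3, 4 and 4 members called at 36, 6 and 24 h did not move. Of the 18375 genes tested in that fit, 3593, 5104, 4480, 3897 and 2269 were called in either direction in order of time from 6 to 72 h.

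**Figure D1:**
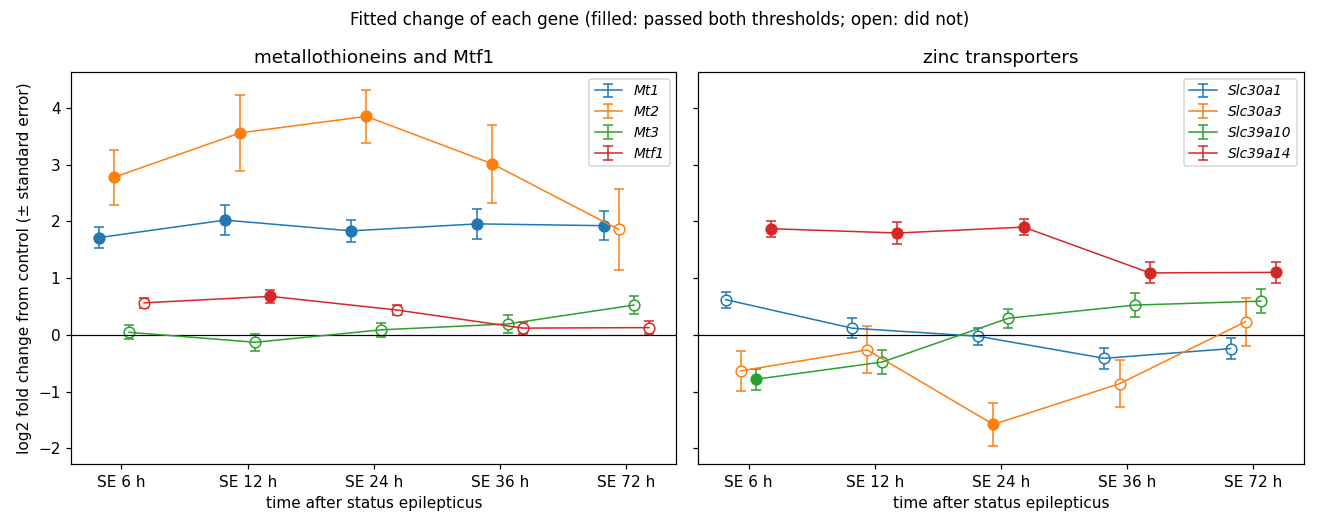
Fitted log2 fold change from control (vertical axis, with standard errors) for the 8 genes at the 5 times after status epilepticus (horizontal axis), filled where both thresholds were passed. Mt2 runs from 2.78 at 6 h to 3.85 at 24 h and 1.86 at 72 h, Mt1 stays between 1.71 and 2.02, and Slc30a3 is lowest at 24 h, at -1.58.

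Mt1 was among the most abundant members. Its level in the 9 control libraries ran from 158 to 302 CPM with a median of 199. It was 624, 858 and 566 CPM in the 3 libraries of SE 6 h, 828, 787 and 1448 CPM at SE 12 h, and 783, 804 and 631 CPM at SE 24 h. At SE 36 h it was 847, 484 and 570.0 CPM, and at SE 72 h 1068, 564 and 862 CPM. All 15 SE libraries lay above the highest control library, and the lowest of them, SE 36 h replicate 2, was still 484 CPM. The log2 fold change was 1.71 ± 0.19 at 6 h (adjusted p = 9.26e-07), 2.02 ± 0.26 at 12 h (adjusted p = 7.1e-06), 1.83 ± 0.19 at 24 h (adjusted p = 2.05e-07), 1.96 ± 0.26 at 36 h (adjusted p = 9.08e-06) and 1.92 ± 0.26 at 72 h (adjusted p = 1.38e-05). The rise was 3.28-fold to 4.06-fold over these times, and no step from one SE time to the next was called. These folds rest on controls that differed in level. The Ctr 36 h libraries held 158 to 166 CPM, below the 197 to 302 CPM of Ctr 12 h and the 199 to 238 CPM of Ctr 72 h. The mean of SE 36 h, 634 CPM, was also the lowest of the SE groups.

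As counted, Mt2 was low in controls and had the largest rise of the 8 genes at 6, 12, 24 and 36 h. Its counts are limited by an overlapping gene, as described below. The 9 control libraries held 2.16 to 7.46 CPM with a median of 4.87. Those of Ctr 36 h, at 2.16 to 3.70 CPM, lay below the 4.72 to 7.46 CPM of Ctr 12 h and the 4.87 to 5.63 CPM of Ctr 72 h. The SE libraries held 24.6, 24.2 and 44.9 CPM at 6 h, 16.5, 62.8 and 131 CPM at 12 h, and 82.4, 73.1 and 43.0 CPM at 24 h. They held 13.3, 10.2 and 50.03 CPM at 36 h and 28.6, 6.68 and 21.9 CPM at 72 h. Of the 15 SE libraries 14 lay above every control, the exception being SE 72 h replicate 2, which was within the range of the 9 controls but above the 3 of its own time (4.87 to 5.63 CPM). The fold was 6.84 at 6 h (log2 fold change 2.78 ± 0.48, adjusted p = 0.000141), 11.8 at 12 h (3.56 ± 0.67, adjusted p = 0.000371), 14.4 at 24 h (3.85 ± 0.47, adjusted p = 2.0e-06) and 8.07 at 36 h (3.01 ± 0.69, adjusted p = 0.00224). At 72 h the log2 fold change of 1.86 ± 0.71 did not pass the test (adjusted p = 0.0568). The size of the change was less certain than its direction. Without SE 12 h replicate 3 the log2 fold change at 12 h was 2.76 (adjusted p = 0.00283), and with the range of sample numbers as a factor it was 1.88, 2.32, 2.17 and 2.30 at 6, 12, 24 and 36 h.

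The Mt2 values spread more among replicates than those of Mt1. At 12 h the SD was 57.6 CPM around a mean of 70.1 CPM (n = 3), and at 36 h 22.1 around 24.5 CPM (n = 3). The high library at 36 h, replicate 3, was one of those with ganglion RNA, and without it the log2 fold change of Mt2 at 36 h was 1.96 (adjusted p = 0.0299). Without SE 72 h replicate 2, also one of those with ganglion RNA, the log2 fold change at 72 h was 2.25 and passed the test (adjusted p = 0.0261). The part of ganglion RNA in the Mt2 values was not tested. With limma-voom in place of edgeR the change at 36 h was 2.77 and did not pass (adjusted p = 0.0669). With the range of sample numbers as a factor, the log2 fold change of Mt2 at 72 h was 0.56 (adjusted p = 0.663).

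In GENCODE M39, 783 of the 950 exonic bases of Mt2 are shared with Gm45774, a long non-coding RNA gene on the opposite strand. Counting ignored the strand, and the counter by default leaves out reads that match both genes, so the Mt2 level rests on read pairs outside the shared bases. The authors counted with GENCODE M26, whose exons can differ, so that the overlap at counting may have been another. Gm45774 itself was at 0 to 1.4998 CPM in the 9 control libraries and at 1.92 to 8.28 CPM in the 15 SE libraries, with 0 to 110 counts. It was called higher at all 5 times, with log2 fold changes of 2.34, 2.26, 3.11, 2.28 and 2.46 in order of time from 6 to 72 h. Reads of Mt2 and of its antisense partner cannot be told apart in the shared bases. The low control level of Mt2 and the size of its rise are therefore those of the counted reads, and may not be those of the whole transcript.

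Mt3, the brain form, was called at no time. Per kilobase of annotated exon, its control level was 189 ± 27.2 CPM (SD, n = 9) and that of Mt1 169 ± 38.3 CPM (SD, n = 9), a difference within the spread of the libraries. The level of Mt3 ran from 216 to 310.1 CPM with a median of 256 in the 9 control libraries and from 200.01 to 326 CPM in the 12 libraries of SE 6 h to SE 36 h, which overlapped. In the 3 libraries of SE 72 h it was 444, 408 and 459 CPM, above every other library. The log2 fold change at 72 h was 0.53 ± 0.15 (adjusted p = 0.0148), which passed on the p-value but lay below the size threshold. The SE effect was larger at 72 h than at 12 h by 0.65 ± 0.22 (adjusted p = 0.0357). In the same 72 h libraries the summed astrocyte markers were 11612 to 13319 CPM, above the 3536 to 4540 CPM of Ctr 72 h. Of the 6 markers 3 were called higher and 0 lower at 72 h, with a median log2 fold change of 1.34 and a far larger one for Gfap. Their part in the Mt3 level was not tested.

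**Figure D2:**
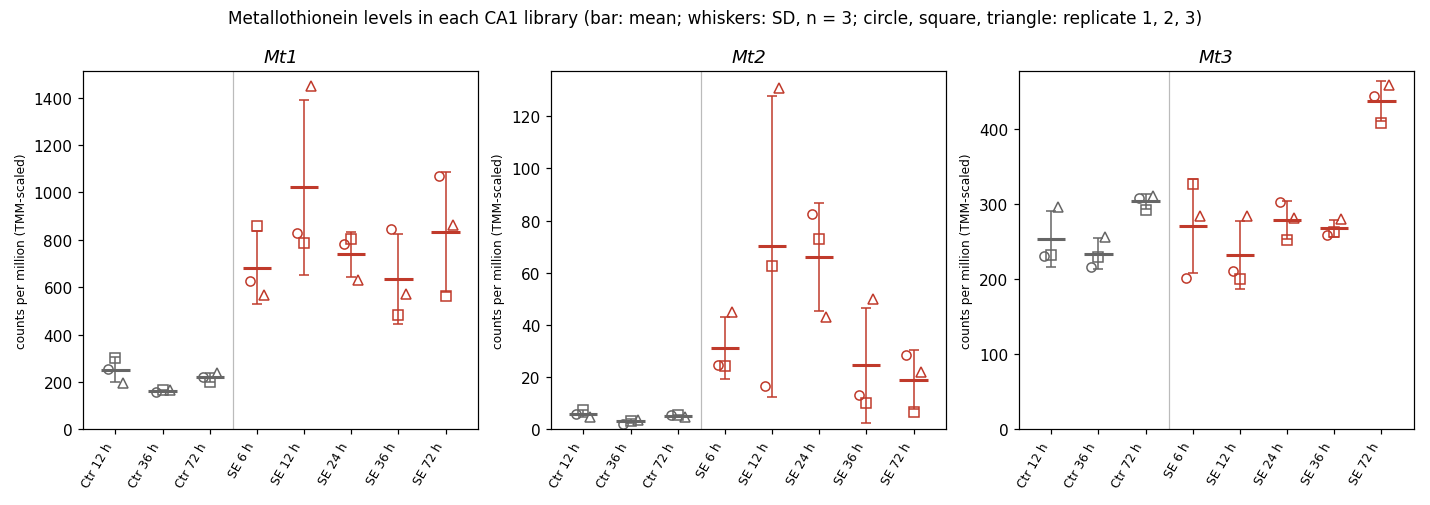
Level of Mt1, Mt2 and Mt3 in CPM (vertical axes) in every library of the 8 groups (horizontal axes), with the mean (bar) and the SD (whiskers, n = 3), controls in grey and SE in red. All 15 SE libraries lie above the controls for Mt1 and 14 of 15 for Mt2, and for Mt3 only the 72 h libraries, at 408 to 459, stand above the rest.

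The astrocyte markers Gja1, Aqp4, Aldh1l1, Slc1a2, Slc1a3 and Gfap summed to 5551 to 6329 CPM at SE 6 h, above the 3536 to 4879 CPM of the 9 controls, and to 5532 to 8104 CPM at SE 12 h, 5132 to 6764 CPM at SE 24 h and 6335 to 8705 CPM at SE 36 h. The members of this sum did not move together. Gfap, a filament protein of reactive astrocytes, was called higher at all 5 times (2.57 at 6 h to 4.999 at 72 h), whereas Gja1, an astrocyte gap junction protein, was called lower at 12 h (-1.04), 24 h (-1.09) and 36 h (-1.32). Of the 6 markers 1 was called higher and 0 lower at 6 h, 2 and 1 at 12 h, 2 and 3 at 24 h and 3 of each at 36 h, with a median log2 fold change of -0.20 at 24 h. Endothelial markers, summed over 5 genes, were 190.04 to 273 CPM in controls and 266 to 381 CPM after SE. Of these 5, 3 were called higher and 1 lower at 6 h and at 12 h. The counts higher and lower were 4 and 1 at 24 h, 2 and 1 at 36 h and 2 and 0 at 72 h. Microglia markers were 119 to 126 CPM at SE 6 h, below the 222 to 305 CPM of controls, and 669 to 1004 CPM at SE 72 h. Of these 6 genes, 0 were called higher and 5 lower at 6 h, and 0 and 2 at 12 h. The counts higher and lower were 1 and 1 at 24 h, 3 and 1 at 36 h and 6 and 0 at 72 h. The part of these cell types in the rise of Mt1, Mt2 and Slc39a14 was not tested.

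Mtf1, the zinc-sensing regulator, was called higher at 12 h, with a smaller fold change than Mt1 and Mt2 at that time. Its level was 28.5 to 40.6 CPM in the 9 control libraries, with a median of 38.0. It was 47.8, 59.1 and 49.5 CPM at SE 6 h, 60.8, 62.2 and 63.1 CPM at SE 12 h, and 46.1, 47.8 and 49.3 CPM at SE 24 h. All 9 of these libraries lay above the highest control. At SE 36 h it was 39.9, 47.1 and 38.0 CPM and at SE 72 h 28.9, 32.0 and 35.3 CPM, where the groups overlapped with their controls. The log2 fold change was 0.68 ± 0.11 at 12 h (adjusted p = 9.41e-05), just past the size threshold of 0.66, and at 6 h and 24 h it was 0.57 ± 0.09 (adjusted p = 5.53e-05) and 0.44 ± 0.09 (adjusted p = 0.000578), which lay below it. At 36 and 72 h it was 0.12 ± 0.11 (adjusted p = 0.446) and 0.13 ± 0.12 (adjusted p = 0.442). The Ctr 72 h libraries, at 28.5 to 30.7 CPM, were the lowest controls. The SE effect was smaller at 72 h than at 12 h by 0.55 on the log2 scale (-0.55 ± 0.16, adjusted p = 0.0192).

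Slc39a14, an importer of zinc, iron and manganese, rose at all 5 times. The 9 control libraries held 33.7 to 45.7 CPM, with a median of 40.8. The SE libraries held 138, 177 and 127 CPM at 6 h, 140.4, 98.3 and 175 CPM at 12 h, and 122, 150 and 179 CPM at 24 h. At 36 h they held 100.1, 94.7 and 78.5 CPM and at 72 h 91.4, 79.1 and 77.3 CPM. All 15 lay above the highest control, and every library of SE 36 h and SE 72 h but 1 lay below 100 CPM. The log2 fold change was 1.87 ± 0.14 at 6 h (adjusted p = 4.97e-09), 1.79 ± 0.19 at 12 h (adjusted p = 6.84e-07), 1.90 ± 0.14 at 24 h (adjusted p = 1.37e-09), 1.09 ± 0.18 at 36 h (adjusted p = 0.000129) and 1.102 ± 0.19 at 72 h (adjusted p = 0.000215). The smaller effect at 72 h than at 12 h (-0.69 ± 0.26) did not pass the test (adjusted p = 0.0625), nor did the step from 24 to 36 h (-0.72 ± 0.18, adjusted p = 0.0641).

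Slc39a10, another plasma membrane zinc importer, was called lower at 6 h. It held 130 to 195 CPM in the 9 control libraries, with a median of 178. At SE 6 h it was 134, 85.3 and 83.0 CPM, of which only replicate 1 was within the control range. At SE 12 h it was 152, 147 and 85.5 CPM, all below the 176 to 183 CPM of Ctr 12 h. The level was 196, 254 and 185 CPM at SE 24 h, 297, 237 and 274 CPM at SE 36 h, and 186, 209 and 307 CPM at SE 72 h. The 36 h and 72 h libraries all lay above the controls of their own time, which reached 195 and 171 CPM. The fall at 6 h was called (-0.78 ± 0.18, adjusted p = 0.00198), and without SE 6 h replicate 3, one of the libraries with ganglion RNA, it was -0.65, just below the size threshold. The changes at 12 h (-0.48 ± 0.21, adjusted p = 0.0806) and 36 h (0.53 ± 0.21, adjusted p = 0.0635) did not pass, and the 0.59 ± 0.21 at 72 h passed on the p-value (adjusted p = 0.0427) but not on size. Without SE 72 h replicate 1 or replicate 2 it was 0.74 or 0.67 and was called. The SE effect at 72 h exceeded that at 12 h by 1.07 ± 0.30 (adjusted p = 0.0155).

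Slc30a1, the plasma membrane exporter and a known target of MTF1, stood highest at 6 h without being called. The 9 control libraries held 37.2 to 55.7 CPM, with a median of 44.7. SE 6 h held 52.7, 79.0 and 77.5 CPM, 2 of them above every control. The log2 fold change of 0.62 ± 0.14 at 6 h passed on the p-value (adjusted p = 0.00181) but lay below the size threshold, and without SE 6 h replicate 1 it was 0.78 and was called. It was also called with at least 10 counts in every library (0.66), with thinned libraries (0.71) and with the ganglion score (0.67). From 12 h on it held 29.2 to 59.8 CPM, with log2 fold changes of 0.12, -0.02, -0.41 and -0.24 at 12, 24, 36 and 72 h, none of which passed. The SE 36 h libraries, at 29.2 to 35.0 CPM, all lay below the 37.2 to 45.8 CPM of Ctr 36 h (adjusted p = 0.0914).

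Slc30a3, the transporter that fills synaptic vesicles with zinc, was lowest at 24 h. It held 32.2 to 61.1 CPM in the 9 control libraries, with a median of 49.1, the lowest being Ctr 72 h replicate 2. At SE 24 h it was 18.7, 13.2 and 18.4 CPM, below every control library. The log2 fold change there was -1.58 ± 0.38 (adjusted p = 0.00251), and with the range of sample numbers as a factor it was -1.29 and did not pass (adjusted p = 0.0743). At the other times it varied between replicates, with 59.7, 17.9 and 19.02 CPM at SE 6 h, 29.9, 62.0 and 29.2 CPM at SE 12 h, 33.3, 38.8 and 23.9 CPM at SE 36 h, and 89.8, 26.3 and 38.3 CPM at SE 72 h. The 3 libraries of SE 36 h lay below the 52.5 to 61.1 CPM of Ctr 36 h. In each of SE 6 h, SE 12 h and SE 72 h a single library stood well above the other pair. The log2 fold changes of -0.63, -0.26, -0.86 and 0.23 at 6, 12, 36 and 72 h did not pass. With the compared groups only, the change at 36 h was -0.87 and was called (adjusted p = 3.09e-05). The change at 6 h was called with limma-voom (-0.91, adjusted p = 0.0458) and without Ctr 72 h replicate 2 (-0.87, adjusted p = 0.0350). Without SE 6 h replicate 1 the change at 6 h was -1.43 and was called (adjusted p = 0.00423), and without SE 72 h replicate 1 the value at 72 h turned to -0.46 and did not pass.

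Slc30a3 is known to be abundant in dentate granule cells, whose layer lies near CA1. The dentate markers Prox1, C1ql2, Lct and Tdo2 summed to 5.80 to 86.5 CPM in the controls and to 214 CPM in SE 72 h replicate 1, the highest of all 24 libraries and the one with the highest Slc30a3. They summed to 63.9 CPM in SE 6 h replicate 1, against 22.8 and 24.3 CPM in the other 2 libraries of that time. In SE 12 h replicate 2, where Slc30a3 was high, they were at 17.2 CPM, the lowest of its group. At SE 24 h they were at 18.7 to 25.7 CPM, within the control range. Summed neuron markers were 4190 to 5281 CPM at SE 24 h, 4226 to 4710 CPM at SE 12 h and 4534 to 4740 CPM at SE 36 h, all below the 5520 CPM of the lowest control, and in the fit over all libraries Slc30a3 was called at 24 h alone of these times. The part of cell composition in the Slc30a3 level was not tested.

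**Figure D3:**
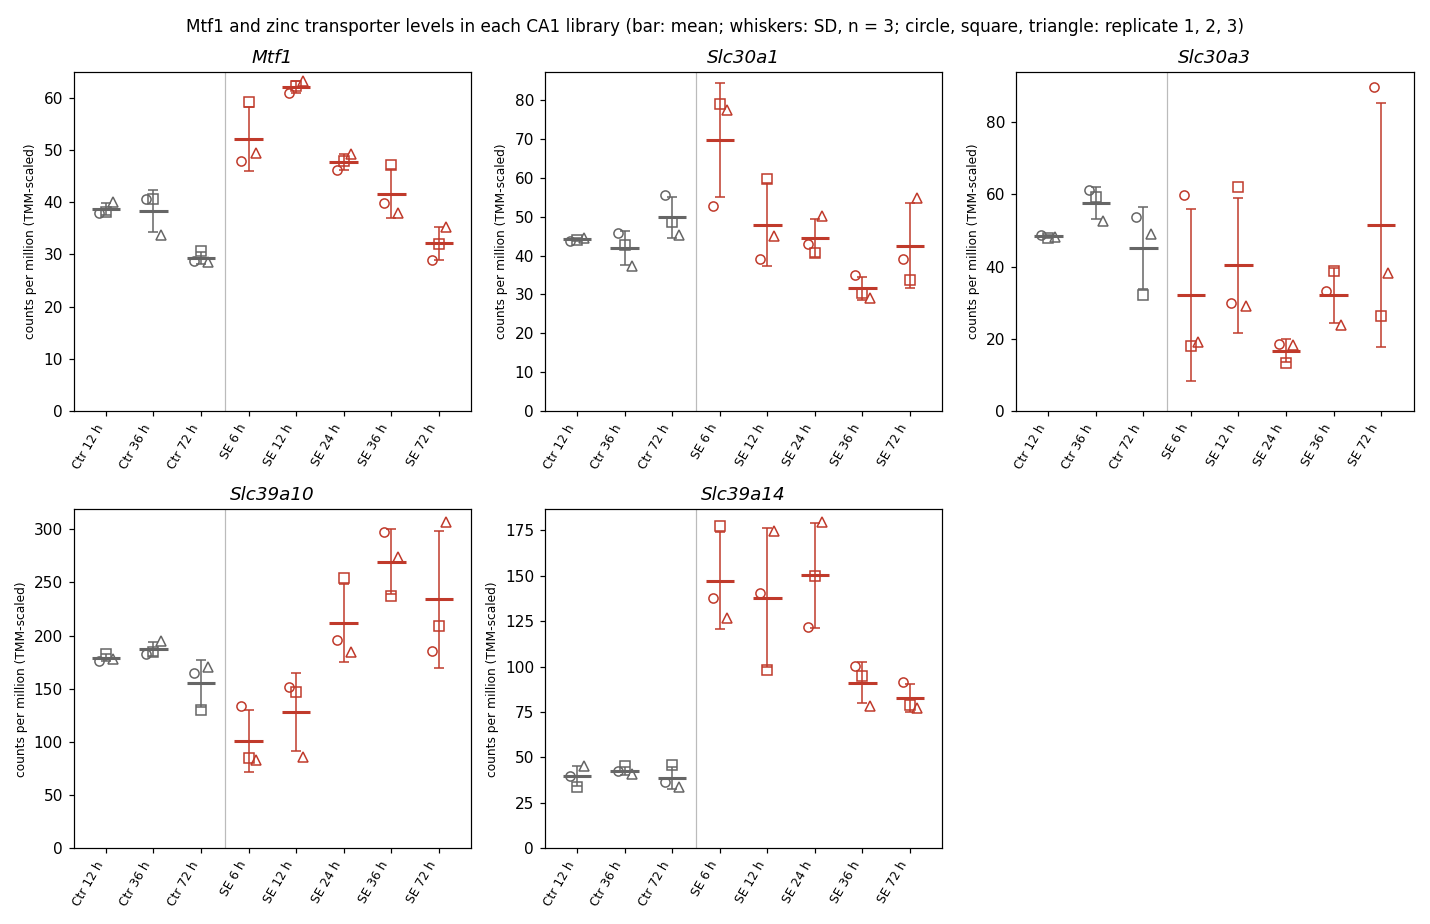
Level of Mtf1 and of the 4 zinc transporters in CPM (vertical axes) in every library of the 8 groups (horizontal axes), with the mean (bar) and the SD (whiskers, n = 3), controls in grey and SE in red. The 3 libraries of SE 24 h lie at 13.2 to 18.7 for Slc30a3, below all controls, and all 15 SE libraries lie above the controls for Slc39a14.

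Between neighbouring times after SE no member was called by edgeR's quasi-likelihood test. This held for SE 12 h against SE 6 h (1.34% of all genes called), SE 24 h against SE 12 h (3.18%), SE 36 h against SE 24 h (0.529%) and SE 72 h against SE 36 h (4.13%). At an unadjusted p under 0.05 there were 3, 3, 4 and 3 members in these comparisons. DESeq2 called only Slc30a3 between 12 and 24 h, where it called 779 of all genes, whereas limma-voom called no member. Mt3 came nearest on the p-value between 36 and 72 h, with a log2 fold change of 0.71 ± 0.15 (adjusted p = 0.00613) against the threshold of 1. When the SE effect was compared between times, 3 members differed between 72 h and 12 h (Mt3, Mtf1 and Slc39a10), where 22.2% of all genes were called and the median difference of all genes was 0.15. No member differed between 36 h and 12 h (3.83% of all genes called) or between 72 h and 36 h (5.35%) by edgeR. For 36 h against 12 h, 3 members had an unadjusted p under 0.05. DESeq2 called 2 (Mtf1 and Slc39a10) and limma-voom 1 (Mtf1), where they called 1416 and 708 of all genes. For 72 h against 36 h all of these counts of members were 0.

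Where the sample numbers allowed SE and control libraries of the same range to be set side by side, Mt1, Mt2 and Slc39a14 were higher after SE. In the middle range, 2 SE 6 h libraries exceeded 5 control libraries of 12 and 36 h by 1.86 for Mt1, 2.54 for Mt2 and 1.95 for Slc39a14 on the log2 CPM scale, and Slc39a10 was at -0.78. The 2 SE 36 h libraries of that range exceeded the 3 Ctr 36 h libraries by 1.97 for Mt1, 1.93 for Mt2 and 1.19 for Slc39a14. The 2 SE 72 h libraries of that range, replicates 1 and 2, both held ganglion RNA (691 and 365 CPM of the summed markers). They exceeded the same 5 control libraries of earlier times by 1.94 for Mt1, 1.73 for Mt2 and 1.08 for Slc39a14. Slc39a10 was at 0.0995 and Mtf1 at -0.32, against 0.59 and 0.13 in the fit with controls of 72 h. No range held both SE 24 h and control libraries. With the range as a factor in place of the RUVr factor, Mt1 and Slc39a14 were called at all 5 times and Mt2 at the same 4. The smaller fold changes of Mt2 in that fit are given above.

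Compared per kilobase of all annotated exon bases (GENCODE M39) in the 9 control libraries, Mt3 and Mt1 were the highest, at 189 and 169 CPM. Slc39a10 followed at 14.3 ± 1.53 CPM, Slc30a3 at 9.88 ± 1.63, Slc30a1 at 8.004 ± 0.87, Mtf1 at 3.89 ± 0.56 and Slc39a14 at 3.34 ± 0.39 CPM (SD, n = 9 for each). Between neighbours in this order, the intervals of mean ± SD overlapped for Mt3 with Mt1, Slc30a3 with Slc30a1 and Mtf1 with Slc39a14. They did not overlap for Mt1 with Slc39a10, Slc39a10 with Slc30a3 or Slc30a1 with Mtf1. Mt2 was given no place in this order, since the length over which its reads were counted is not known.

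The 24 libraries differ in group and depth. Over all of them, the log2 CPM of Mt1 and Mt2 had a Pearson r of 0.86. The r was 0.87 for Mt1 and Slc39a14, 0.83 for Mt2 and Slc39a14 and 0.73 for Mtf1 and Slc39a14. Slc30a3 ran against Slc39a14 (r = -0.61) and Slc39a10 against Slc30a1 (r = -0.68). Among 13749 other genes whose log2 CPM averaged 1 or more, those most like Mt2 were Cdkn1a, a cell cycle inhibitor (r = 0.904), Ptbp1, a splicing regulator (0.902), Mcl1, an anti-apoptotic protein (0.888), Id1 (0.887) and Tgm2 (0.884). Nearest to Slc39a14 were Ddx21 (0.966), Clic4 (0.964), Aff1 (0.959), Smim3 (0.959) and Maff (0.955). The profile of Mtf1 was most like those of Ankrd52 (0.959), Pprc1 (0.932), Nop2 (0.932), Fbxw11 (0.927) and Atxn1l (0.919). The nearest profiles to Slc30a3 were weaker, with Rasl10a (0.804), Sesn1 (0.789), Pitpnm2 (0.788), Mxd4 (0.770) and Rrm2b (0.767). These are descriptions of likeness over libraries that differ by treatment.

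Of the other SLC30 exporters, 7 of 8 listed genes were tested. Of these, 2 were called lower at 12, 24 and 36 h and 1 at 6 and 72 h, with none higher. Over all genes tested, 6.21%, 11.4%, 9.21%, 8.91% and 4.21% were called lower in order of time from 6 to 72 h. The share called higher was 12.7% to 15.8%. Slc30a10, a manganese exporter, was called lower at all 5 times, with log2 fold changes of -1.01, -1.33, -1.55, -1.59 and -0.87 in order of time from 6 to 72 h. Slc30a2, a vesicular zinc transporter, was called lower at 12 h (-1.80), 24 h (-1.01) and 36 h (-2.26).

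Of the other SLC39 importers all 12 were tested. In order of time from 6 to 72 h, those called higher numbered 2, 1, 2, 3 and 3, and those called lower 2, 1, 1, 2 and 0. Over all genes tested 12.7% to 15.8% were called higher and 4.21% to 11.4% lower, so that these counts of 12 lay near the background. Slc39a1 was called higher at all 5 times, from 0.91 ± 0.09 at 6 h to 1.74 ± 0.12 at 72 h, and held 26.6 to 42.4 CPM in controls and 109 to 114 CPM at SE 72 h. Slc39a12, a brain zinc importer, was called lower at 12 h (-1.14), 24 h (-2.87) and 36 h (-2.21), and its 72 h value of 0.44 did not pass. It held 18.6 to 58.8 CPM in the controls and 2.38 to 9.89 CPM at SE 24 h. Slc39a4 was called higher at 6 and 72 h, on counts of 0 to 5 in Ctr 72 h and 13 to 34 in SE 72 h. Of 4 other zinc-related genes 2 were tested, and Slc40a1, the iron exporter ferroportin, was called lower at 6 h (-1.92), 12 h (-1.83), 24 h (-2.22) and 36 h (-0.92).

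**Figure D4:**
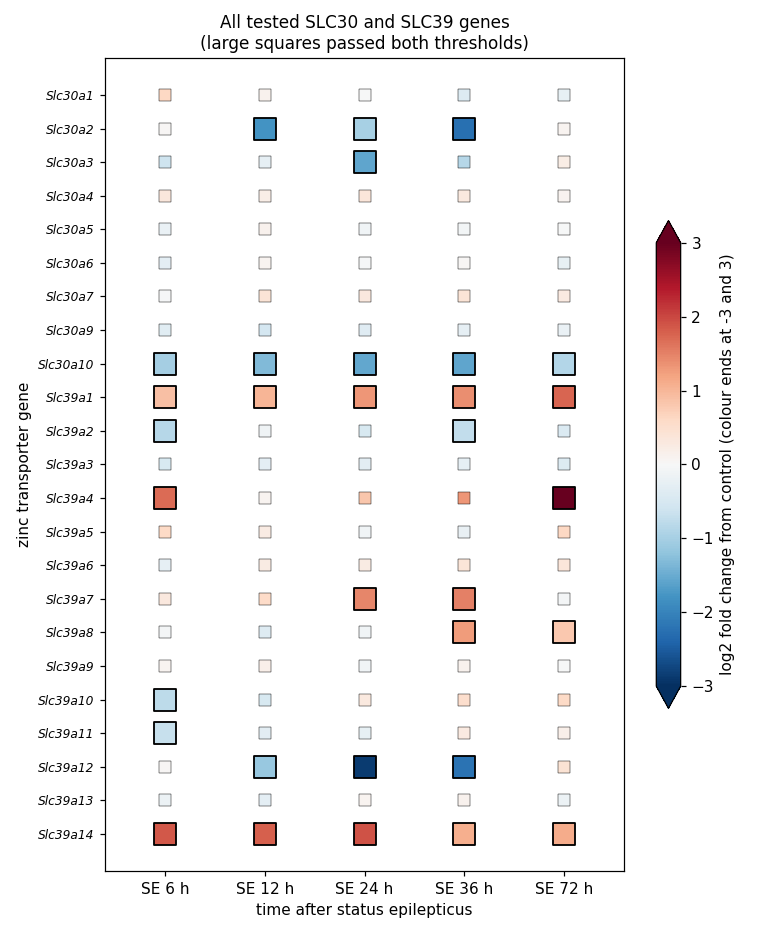
Log2 fold change from control (colour) of the 23 tested SLC30 and SLC39 genes (rows) at the 5 times after status epilepticus (columns), with large squares where both thresholds were passed. Slc39a1 and Slc39a14 are called higher and Slc30a10 lower at all 5 times, and Slc39a12 is lowest at 24 h, at -2.87.

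AP-3, the adaptor complex that sorts SLC30A3 to synaptic vesicles, and the vesicular glutamate transporter Slc17a7 were tested with all 8 listed genes. Ap3s2 was called lower at 12 h (-0.87) and Ap3m2 (-0.81) and Slc17a7 (-0.69) at 36 h, and none was called higher at any time. Over all genes tested, 11.4% were called lower at 12 h and 8.91% at 36 h, and 12.7% to 15.8% were called higher at the single times. At 24 h, where Slc30a3 was called lower, none of the 8 was called, and their median log2 fold change was -0.29.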

How the data were processed

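The data were 24 RNA-seq libraries of microdissected mouse CA1, 3 in each of 8 groups. The authors trimmed paired-end reads with Trim Galore 0.6.6, aligned them with STAR 2.7.8a to GRCm39 with GENCODE M26, merged lanes, and counted reads per gene with HTSeq 0.13.5 without regard to strand, versions being those of the submitters' processing notes. The deposited values were raw counts, whole numbers without normalization. Because the strand was ignored, genes that overlap on opposite strands share uncertain reads, which bears on Mt2, Mtf1, Slc30a1 and Slc39a10.

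Of 18647 genes, 18552 were matched to a symbol in GENCODE M39 on the same build. In R 4.3.3, counts were filtered with filterByExpr over the 8 groups (18153 genes kept), scaled with TMM and fitted with edgeR 4.0.16 (glmQLFit, glmQLFTest), the design holding the groups and, from the deviance residuals, 1 factor of unwanted variation (RUVr), over all 24 libraries. The p-values were adjusted by Benjamini-Hochberg over all genes tested. Log2 CPM used a prior count of 2. The standard error is the log2 fold change divided by the square root of F. Nothing in the labels says more of the replicates than that they are separate samples, so the p-values measure the spread between these samples. Replicates of one group differed by more than sampling noise. The fitting was tested on simulated data.

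All 8 members are named. Of the other lists, genes called in at least 1 comparison of SE with control are named, at most 3 per list, the largest change first. The members and lists were chosen with earlier results of these data known. Alternatives were DESeq2 1.42.0, limma-voom (limma 3.58.1), other scalings, filters, factors, sample sets and depths, and leaving out each library. Leaving out the 6 libraries with ganglion RNA, and replacing the RUVr factor by a ganglion score, were chosen after seeing the data. The range of sample numbers also replaced the RUVr factor, so the fit with the range differs from the main fit in both respects. Metal response elements were searched in RefSeq promoters. Protein sequences were not used here, and 1 planned ganglion marker is not reported here.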

Additional observations from a re-analysis of the deposited data

Results flagged for a closer look

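The effect of SE differed between 72 h and 12 h for 3 of the 8 genes, by edgeR's quasi-likelihood test of the difference itself. For Slc39a10 the effect was larger at 72 h by 1.07 ± 0.30 (adjusted p = 0.0155), with a log2 fold change of -0.48 at 12 h and 0.59 at 72 h, and the difference was called under 23 of 25 alternatives. For Mtf1 the effect was smaller at 72 h, the difference being -0.55 ± 0.16 (adjusted p = 0.0192) between 0.68 at 12 h and 0.13 at 72 h, and it was called under 21 of 25. For Mt3 the effect was larger at 72 h by 0.65 ± 0.22 (adjusted p = 0.0357), between -0.13 at 12 h and 0.53 at 72 h, and it was called under 14 of 25. Over all genes tested the median of this difference was 0.15, and 22.2% of genes were called. With the range of sample numbers as a factor, and with libraries thinned to the smallest total, none of the 3 was called. Over all genes, 4028 of 18153 were called in the main fit. The range as a factor gave 1662 of 18153, and thinned libraries 550 of 14865. Leaving out the 6 libraries with ganglion RNA gave 2512 of 18375. With the 6 libraries that held ganglion RNA left out, Mtf1 (-0.39, adjusted p = 0.220) and Mt3 (0.66, adjusted p = 0.0979) lost their calls, Slc39a10 stayed called (1.53) and Mt2 was called in addition (-1.95, adjusted p = 0.0427). Mt3 also lost its call without Ctr 12 h replicate 3 (0.53), Ctr 72 h replicate 3 (0.67), SE 12 h replicate 1 (0.59), SE 12 h replicate 2 (0.56) or SE 72 h replicate 3 (0.62). Leaving out SE 72 h replicate 1, which held 691 CPM of ganglion markers, left Slc39a10 alone called, with Mt3 at 0.64 (adjusted p = 0.0600) and Mtf1 at -0.48 (adjusted p = 0.0532). Groups of 3 libraries were not searched for single outlying samples.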

How the results depend on the processing

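The 17 called changes of a member from control kept their direction under all alternatives and stayed called in 367 of 371 alternative values. The exceptions were Mtf1 at 12 h with libraries thinned to the smallest total, Mt2 at 36 h with limma-voom, Slc30a3 at 24 h with the range of sample numbers as a factor, and Slc39a10 at 6 h without SE 6 h replicate 3. For these and the changes below the cause was not tested.

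At 72 h, 4 members were called with the 6 libraries holding ganglion RNA left out, and the range over single libraries left out was 2 to 4. At 6 h that range was 3 to 6. With those 6 libraries left out, 1 member was called in each of SE 12 h against SE 6 h (Mt2), SE 24 h against SE 12 h (Slc30a3) and SE 36 h against SE 24 h (Mt2). Of the 18375 genes tested in that fit, 191, 854 and 200 were called in these comparisons. DESeq2 also called 1 member in SE 24 h against SE 12 h, and 779 of 18153 genes there. For the SE effect at 36 h against 12 h, 1 member was called with DESeq2 size factors, limma-voom or the ganglion score. Over all genes 700, 708 and 506 were called there, against 696 in the main fit. The count was 2 with at least 10 counts in every library, DESeq2, the compared groups only or the 6 libraries left out. There 784 of 11913, 1416 of 18153, 1151 of 17098 and 1461 of 18375 genes were called. Leaving out 1 library gave 0 to 2 members. For 72 h against 12 h, 0 members were called with the range of sample numbers or with thinned libraries, and 1 to 3 when leaving out 1 library. With the range 1662 of 18153 genes were called, and with thinned libraries 550 of 14865, against 4028 of 18153 in the main fit.

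Deviations of same-numbered SE and control libraries from their group means had r from -0.20 to 0.18, and those of differently numbered libraries -0.30 to 0.25. With 3 libraries per group these values cannot settle whether a number marks a shared block. The libraries were fitted as unpaired. The fit with a replicate block called 4, 3 and 2 members at 12, 36 and 72 h as before. It called 1 in place of 0 for the SE effect at 36 h against 12 h, its only change of a count of members. Over all genes it called 780 there, in place of 696.

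Values that changed sign were all uncalled. With thinned libraries these were Mt3 at 12 h (0.0358) and 6 h (-0.0540), Slc30a1 at 12 h (-0.0301) and Mtf1 at 72 h (-0.20). With the range of sample numbers they were Slc30a1 at 12 h (-0.0680), Slc30a3 at 12 h (0.0809) and 72 h (-0.19) and Mt3 at 24 h (-0.00080). With the 6 libraries left out they were Slc30a1 (0.10) and Slc30a3 (-0.43) at 72 h and Mt3 at 6 h (-0.0277). Leaving out 1 library gave -0.0723 to 0.25 for Slc30a1 at 12 h, -0.46 to 0.55 for Slc30a3 at 72 h, -0.11 to 0.22 for Mt3 at 6 h and -0.12 to 0.0386 for Slc30a1 at 24 h.

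Scaling by library size alone moved the median of all genes at 36 h from 0.00 to 0.13 and the share of called genes that were higher from 58.8% to 69.9%. Thinning to 2663936 counts lowered the genes tested from 18153 to 14865 and the genes called at 12 h from 4580 to 2001, with 3530 falling to 1001 at 72 h. At 72 h 2851 genes were called without the RUVr factor and 1595 with the range of sample numbers in its place. With at least 10 counts in every library 1892 were called, and with the 6 libraries left out 2269.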

Other observations

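Copper handling was described with 8 listed genes, all of which were tested. Cp, which encodes the copper-carrying ferroxidase ceruloplasmin, was called higher at all 5 times, with log2 fold changes of 1.29 ± 0.28, 1.78 ± 0.36, 1.28 ± 0.27, 1.88 ± 0.37 and 1.46 ± 0.37 in order of time from 6 to 72 h (largest adjusted p = 0.00634). It held 9.69 to 22.1 CPM in the 9 control libraries and 24.3 to 78.8 CPM after SE, so that the groups did not overlap. Atp7a, a copper-exporting ATPase, was called higher at 6, 24, 36 and 72 h (0.72, 0.75, 1.47 and 1.89), and the 0.43 at 12 h did not pass. It held 7.16 to 10.4 CPM at SE 72 h and 1.01 to 7.67 CPM in Ctr 72 h, which overlapped. Atp7b was called lower at 12 h (-0.84) and at no other time. The median of the 8 genes in order of time from 6 to 72 h was -0.01, 0.13, 0.23, 0.36 and 0.34, beside 0.06, 0.01, 0.04, 0.00 and 0.10 over all genes tested.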
